A study of Mus musculus with 5 samples.

Results

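The S100 genes code for small calcium-binding proteins, and 10 of them were asked for here by symbol: S100a1, S100a4, S100a6, S100a8, S100a9, S100a10, S100a11, S100a13, S100a14 and S100a16. Of these, 9 had a row among the 18384 genes of the 5 plates. S100a9 had no row and is not analysed here. The cells came from organoids of MMTV-PyMT mammary carcinoma, a mouse model in which the MMTV promoter switches on polyoma middle T in mammary epithelial cells. The organoids were taken out of BME (basement membrane extract) and embedded for 5 days either in BME again, where they do not invade (3 plates, replicates 1, 2 and 3), or in fibrillar Collagen I, where they do (2 plates, replicates 1 and 3). Single live cells were sorted into plates of 384 wells. All plates hold the same tumor model, and whether the replicates came from separate cultures is not given in the sources used here, so p-values measure the spread between plates.

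S100 proteins mostly work as dimers in which each subunit carries a pair of EF hands, the loops that hold calcium. When calcium binds, a surface opens that docks onto target proteins such as annexins, the non-muscle myosin heavy chain and the scaffold Ahnak. S100a10 is an exception that has lost calcium binding and pairs with annexin A2 (Anxa2) at the membrane, S100a11 pairs with annexin A1 (Anxa1), S100a6 (calcyclin) binds the calcyclin-binding protein Cacybp, and S100a4 binds the myosin heavy chain Myh9 and is known from studies of metastasis. S100a8 together with S100a9 forms calprotectin, best known from neutrophils but also made by epithelium, and S100a14 is an epithelial member. In the mammary gland basal cells carry the keratins Krt5, Krt14 and Krt17 and luminal cells carry Krt8 and Krt18.

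All 9 measured members lie on mouse chromosome 3 (GENCODE vM21 on GRCm38, the assembly of the mm10 build used for mapping). S100a1 spans 90511034 to 90514392 on the minus strand. On the plus strand follow S100a13 (90514435 to 90524581), S100a14 (90526856 to 90528837), S100a16 (90537254 to 90543151), S100a4 (90603771 to 90606045), S100a6 (90612882 to 90624181) and S100a8 (90668978 to 90670035). S100a11 (93520488 to 93526287) and S100a10 (93555080 to 93564643) lie apart from that cluster. RefSeq (GRCm38.p6) gave promoter windows, from 250 bases before to 50 bases after the start, for 8 of the 10 members. The 4 windows below are shown because S100a4, S100a6 and S100a8 were lower in Collagen I in non-basal wells while S100a11, about as abundant as S100a6 in BME, did not pass the test. They lie at chr3:90603520-90603819, chr3:90612644-90612943, chr3:90668821-90669120 and chr3:93520246-93520545, all on the plus strand, and run 5′ to 3′. Capitals mark matches to 4 motifs searched on both strands: AP-1 (TGANTCA, which reads the same on both strands), TEAD (GGAATG), Sp1 (GGGCGG) and a TATA box (TATAAA).
S100a4: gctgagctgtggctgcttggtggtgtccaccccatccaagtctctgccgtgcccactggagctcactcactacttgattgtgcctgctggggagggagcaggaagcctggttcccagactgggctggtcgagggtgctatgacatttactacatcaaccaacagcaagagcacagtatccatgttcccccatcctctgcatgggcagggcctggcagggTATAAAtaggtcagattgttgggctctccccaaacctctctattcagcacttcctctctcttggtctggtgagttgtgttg
S100a6: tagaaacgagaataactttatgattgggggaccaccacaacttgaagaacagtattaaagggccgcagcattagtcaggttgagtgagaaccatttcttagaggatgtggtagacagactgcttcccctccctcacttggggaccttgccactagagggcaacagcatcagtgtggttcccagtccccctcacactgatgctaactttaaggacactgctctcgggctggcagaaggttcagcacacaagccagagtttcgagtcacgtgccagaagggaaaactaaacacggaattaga
S100a8: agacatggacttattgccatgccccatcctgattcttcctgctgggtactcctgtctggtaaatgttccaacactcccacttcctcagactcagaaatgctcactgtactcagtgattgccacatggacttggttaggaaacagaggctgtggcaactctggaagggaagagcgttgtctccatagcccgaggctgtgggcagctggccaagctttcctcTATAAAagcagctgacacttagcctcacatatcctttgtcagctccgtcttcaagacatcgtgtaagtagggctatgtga
S100a11: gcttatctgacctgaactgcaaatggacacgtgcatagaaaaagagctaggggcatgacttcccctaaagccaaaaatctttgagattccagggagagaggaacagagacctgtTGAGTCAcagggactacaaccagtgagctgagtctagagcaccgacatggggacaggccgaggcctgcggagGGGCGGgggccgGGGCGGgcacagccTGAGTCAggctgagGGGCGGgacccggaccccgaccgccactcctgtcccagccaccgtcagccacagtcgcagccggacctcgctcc

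The windows differed in these letters. S100a4 and S100a8 each held 1 TATA box match, starting at -31 and -30 from the start, and no other match. S100a6 held none of the 4 motifs. S100a11 held 2 AP-1 matches, at -136 and -38, and 3 Sp1 matches, and no TATA box match. The windows of S100a1 and S100a13, whose starts face away from each other, overlap and held none of the 4 either. Of the other windows, 1 of the pair for S100a16 held 1 AP-1 and 1 Sp1 match, and that of S100a9 held 1 Sp1 and 1 TATA box match. No window of a measured member held the TEAD letters. S100a10 and S100a14 had no entry. Among 32851 promoter windows of this length, 7.81% held the AP-1 letters, 14.7% TEAD, 35.7% Sp1 and 13.6% the TATA box, so both a match and its lack were common, and neither says whether a factor binds.

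The wells differed between the matrices in depth. The BME plates held 9077590 to 10911740 counts and the Collagen I plates 1631981 and 1091410. After wells with at most 500 counts, 8000 genes or more, or 10% or more mitochondrial counts were left out, 944 BME and 556 Collagen I wells remained of 1920, with medians of 21739 to 25603 and of 5106 and 2749 counts. Spike-in RNA took 2.31% to 2.68% of counts in BME and 8.18% and 8.07% in Collagen I. The gene Rn45s took 1.69% to 2.71% of counts in BME wells kept and 6.84% and 8.35% in Collagen I wells kept. By the flow cell names, the 3 BME plates shared 1 sequencing run and the Collagen I plates were run separately, so matrix and run cannot be told apart. A well was called basal at 5 or more Krt5, Krt14 and Krt17 counts per 10000 (528 wells in all), non-basal under 2 (814 wells), and neither in between. Wells were called cycling at 20 or more counts of 28 cell-cycle genes per 10000 whatever their keratins (547 wells). All 6 basal markers not used for the classes, Trp63 among them, were higher in basal wells, and 5 of 7 luminal markers tested were lower, Kit and Csn3 among them. Krt8 and Krt19 were not. Well names are the same in all plates and carry no cell barcode. In the text, a level is in CPM, the counts for every 1000000 of the summed counts of a class in a plate, and a fold change is a log2 value from edgeR's quasi-likelihood test on those sums with its standard error (SE). A call needs a Benjamini-Hochberg adjusted p under 0.05 over all genes tested, and all 9 members passed the filter on low counts in every comparison.

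S100a6, S100a11 and S100a10 made up most of the S100 RNA. CEL-Seq2 counts the 3′ ends of molecules, so these levels do not grow with gene length. In basal wells of BME, S100a6 stood at 1658 ± 104.2 CPM (SD, n = 3) and S100a11 at 1400 ± 309.7, and their plates overlapped. S100a10 followed at 701 ± 41.3, clear of both. S100a16 (167.5 ± 17.9), S100a1 (137.4 ± 35.9) and S100a14 (121.01 ± 15.95) came next and their plates overlapped from one to the next. S100a4 at 47.3 ± 12.9, S100a13 at 22.7 ± 7.18 and S100a8 at 6.29 ± 3.03 were lowest and did not overlap with each other. The order was not the same in non-basal wells of BME, where S100a6 (1009 ± 56.4 CPM) and S100a11 (964 ± 257.02) overlapped again and S100a4 (29.2 ± 9.45), S100a8 (19.6 ± 3.59), S100a13 (18.1 ± 4.07) and S100a14 (16.5 ± 3.65) each overlapped with the next. S100a14 thus left the middle of the order and joined the rarest members. The 9 members together took 0.396% to 0.480% of all counts in basal BME wells and 0.236% to 0.301% in non-basal ones.

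S100a6 was lower in Collagen I in each class of wells. In non-basal wells the BME plates held 1073, 966 and 987 CPM against 432 and 440.4 CPM with Collagen I. The groups were far apart and each was tight, and the log2 fold change was -1.19 ± 0.16 (SE, edgeR adjusted p = 4.58e-05). In cycling wells BME gave 1123, 1052 and 1009 CPM against 457 and 372.4 CPM, with a log2 fold change of -1.43 ± 0.18 (edgeR adjusted p = 0.000171). Both calls held under each alternative run. Basal wells of BME held 1778, 1594 and 1602 CPM, those of Collagen I 1105 and 962 CPM. The plates did not overlap here either, and the log2 fold change was -0.64 ± 0.19 (edgeR adjusted p = 0.0215). That call was lost without BME replicate 3 (edgeR adjusted p = 0.0819), without Collagen I replicate 1 (0.0698) or 3 (0.156), and with stricter keratin limits (0.0547), at log2 fold changes of -0.57 to -0.74.

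**Figure D1:**
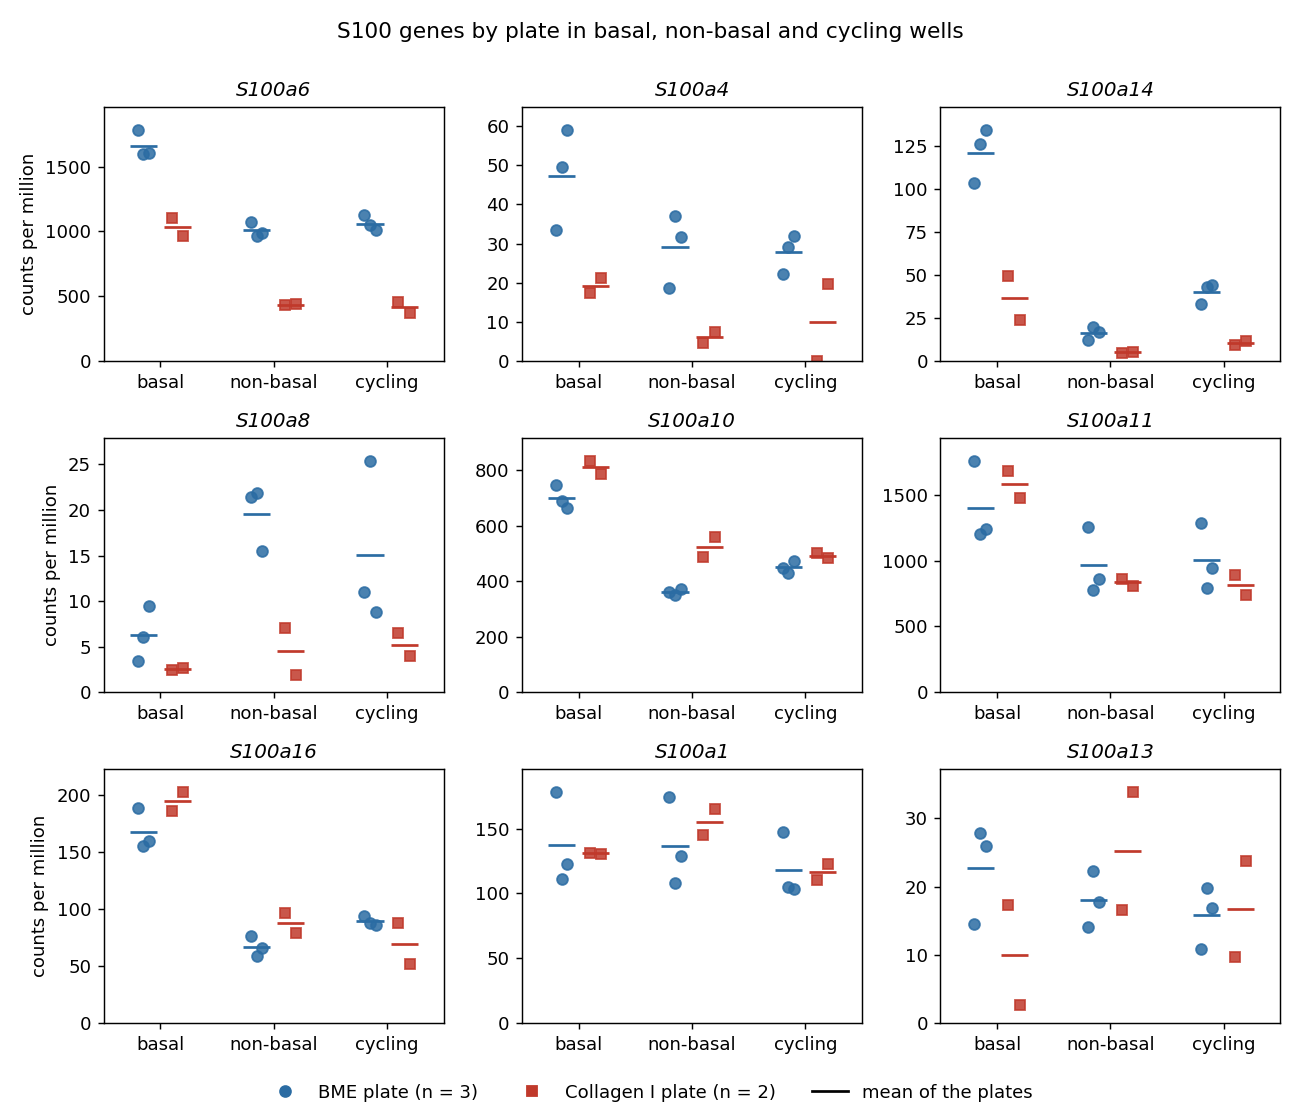
Level of each measured S100 gene (y axis, CPM, linear from 0, own scale per gene) in basal, non-basal and cycling wells; each point is 1 plate (blue circles BME, n = 3; red squares Collagen I, n = 2) and the bars are means. S100a6, S100a4, S100a14 and S100a8 sat lower in Collagen I in basal and non-basal wells, and S100a10 sat higher. In basal wells each Collagen I point of S100a8 rests on 1 count.

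Of the 3 members called in basal wells, S100a14 had the largest fall. Its basal levels were 103.2, 125.98 and 133.9 CPM in BME against 49.6 and 23.96 CPM in Collagen I, a log2 fold change of -1.67 ± 0.28 (edgeR adjusted p = 0.000193). The call held without any single plate and was lost, among the alternatives run, only when wells were thinned to 2000 counts (edgeR adjusted p = 0.0585). In non-basal wells it was low in both matrices, with 12.5, 19.6 and 17.3 CPM in BME against 4.72 and 5.64 CPM in Collagen I, and the Collagen I values rested on 7 counts in all. The log2 fold change was -1.67 ± 0.49 (edgeR adjusted p = 0.0176). It was not called without either Collagen I plate (edgeR adjusted p = 0.213 and 0.0787), by DESeq2 (0.05) or with stricter keratin limits (0.0956).

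S100a4, the myosin-binding member, reached 33.4, 49.6 and 58.9 CPM in basal wells of BME but only 17.3 and 21.3 CPM in Collagen I, so that the plates did not overlap. The log2 fold change was -1.26 ± 0.39 (edgeR adjusted p = 0.0271), on 15 Collagen I counts. This call was lost without BME replicate 3 (edgeR adjusted p = 0.0896), without Collagen I replicate 1 (0.22) or 3 (0.127), by DESeq2 (0.0705) and with stricter keratin limits (0.0679). In non-basal wells S100a4 levels of 18.7, 37.1 and 31.7 CPM in BME faced 4.72 and 7.52 CPM in Collagen I, where 8 counts lay behind both values. The log2 fold change there was -2.29 ± 0.50 (edgeR adjusted p = 0.0029) and was not called without Collagen I replicate 1 (edgeR adjusted p = 0.131). In cycling wells it had 0 counts in Collagen I replicate 1, which allows up to 9.72 CPM, and 5 counts in replicate 3, and the difference did not pass the test (edgeR adjusted p = 0.147). It passed with a lower limit for cycling wells (edgeR adjusted p = 0.0404), with no filter on low counts (0.0253) and without BME replicate 1 (0.0449).

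S100a8, the calprotectin subunit, was the one member lower in basal than in non-basal wells. Non-basal wells of BME held 21.5, 21.8 and 15.4 CPM, and those of Collagen I 7.07 and 1.88 CPM, on 6 and 1 counts. The log2 fold change was -1.94 ± 0.49 (edgeR adjusted p = 0.00733). It was not called without Collagen I replicate 3 (edgeR adjusted p = 0.0842), with cycling wells left out (0.153) or with no limit on mitochondrial counts (0.0681). In basal wells the Collagen I plates held 1 count each against 48 counts in BME, and no difference was detectable at that depth.

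S100a10, the partner of Anxa2, went the other way. Its non-basal levels were 360.9, 348.9 and 371.8 CPM in BME and rose to 486 and 559 CPM in Collagen I, a log2 fold change of 0.55 ± 0.15 (edgeR adjusted p = 0.0113). The call was lost without Collagen I replicate 3 (edgeR adjusted p = 0.155). Basal wells held 746, 689 and 666 CPM in BME against 833 and 788 CPM in Collagen I. The plates did not overlap, but the difference did not pass the test (edgeR adjusted p = 0.35). In cycling wells (448, 430 and 474 CPM against 502 and 483 CPM) it did not pass either (edgeR adjusted p = 0.882).

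The other 4 members did not pass the test between the matrices. S100a11 ranged from 1199 to 1756 CPM in basal wells of BME, with 1685 and 1476 CPM in Collagen I between those ends. S100a16 ranged from 58.9 to 76.3 CPM in non-basal wells of BME and reached 96.7 and 79 CPM in Collagen I, without overlap (edgeR adjusted p = 0.116). S100a1, best known from heart muscle, ranged from 108.2 to 178.3 CPM in basal and non-basal wells of BME and from 130.4 to 165.5 CPM in Collagen I. S100a13, a member tied to the release of proteins without a signal peptide, rested on 8 basal and 32 non-basal counts in Collagen I. Among the BME plates, replicate 1 was the highest for S100a1, S100a6, S100a11 and S100a16 in basal and in non-basal wells. It was the lowest in both for S100a4, S100a13 and S100a14. Without that plate the differences of S100a16 (edgeR adjusted p = 0.018) and S100a1 (0.0456) in non-basal wells and of S100a11 in basal wells (0.0472) passed, all 3 of them higher in Collagen I.

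Across the members, 3 of 9 fell and 0 rose in basal wells, where 19.1% of 10296 genes tested were called (8.31% lower and 10.8% higher). By DESeq2, or at an unadjusted p under 0.05, none rose there either. In non-basal wells 4 fell and 1 rose, where 28% of 11076 genes were called (13.9% lower and 14.1% higher). In cycling wells 2 fell, S100a6 and S100a14, against 7.63% of genes called (3.09% lower and 4.54% higher). The S100a14 call there rested on 3 counts in each Collagen I plate and was lost without Collagen I replicate 1 (edgeR adjusted p = 0.174) or 3 (0.141) and among basal (0.126) or non-basal (0.436) cycling wells alone. Plates of the matrices did not overlap for 5 members in basal wells, where Collagen I lay below for S100a4, S100a6, S100a8 and S100a14 (29.7% of all genes) and above for S100a10 (23.5%). For S100a8 this rested on 1 count in each Collagen I plate, at 2.48 and 2.66 CPM against 3.39 CPM in the lowest BME plate. Plates did not overlap for 6 members in non-basal wells, below for the same 4 (31.8% of all genes) and above for S100a10 and S100a16 (26.6%). The median log2 fold change of the members was -0.64 in basal wells and -0.19 in non-basal wells, beside -0.03 over all genes in each.

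With S100a6 lower and S100a10 higher, the makeup of the S100 RNA differed between the matrices, and a ratio of genes within a plate does not depend on how the plates were scaled. S100a6 made up 38.7% ± 2.75 (SD, n = 3) of the members' RNA in non-basal wells of BME and 21% ± 0.0212 (SD, n = 2) in Collagen I, while S100a10 made up 13.9% ± 1.64 and 25.1% ± 2.11. In basal wells S100a6 made up 39% ± 1.76 and 27% ± 0.554. The ratio of S100a6 to S100a10 counts was 2.80 ± 0.161 in BME and 0.839 ± 0.0713 in Collagen I in non-basal wells, and 2.37 ± 0.0475 and 1.27 ± 0.0742 in basal wells. The ratio of S100a6 to S100a11 was 1.08 ± 0.205 and 0.524 ± 0.0325 in non-basal wells.

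Among the partners of the S100 proteins, Anxa2, Ahnak, Myh9 and Bsg rose in Collagen I in both classes and Cacybp fell in both. Anxa2, which joins S100a10, was counted at 423, 433 and 344.7 CPM in basal wells of BME and well apart from them at 1281 and 1378 CPM in Collagen I, a log2 fold change of 1.78 ± 0.18 (edgeR adjusted p = 1.98e-07). It also rose in non-basal wells, by 1.47 ± 0.15 on the log2 scale (edgeR adjusted p = 2.25e-06), and in cycling wells (edgeR adjusted p = 0.000714). The ratio of S100a10 to Anxa2 counts was 1.76 ± 0.17 in basal wells of BME and 0.611 ± 0.0554 in Collagen I, and 1.08 ± 0.0432 and 0.572 ± 0.0262 in non-basal wells. S100a10 counts thus exceeded those of Anxa2 in every BME plate and lay below them in both Collagen I plates.

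Ahnak, the large scaffold that Anxa2 and S100a10 hold at the membrane, rose in basal (1.13 ± 0.19, edgeR adjusted p = 0.000192) and non-basal wells (0.92 ± 0.14). Myh9, the myosin heavy chain bound by S100a4, rose in basal wells (1.38 ± 0.19, edgeR adjusted p = 1.89e-05) and in non-basal wells (0.80 ± 0.16), there not without Collagen I replicate 1 (edgeR adjusted p = 0.0888) or after thinning (0.0839). Bsg (basigin), a membrane protein reported as a receptor of calprotectin, rose in basal wells from 996, 839 and 722 CPM in BME to 2135 and 2626 CPM in Collagen I and in non-basal wells by 2.23 ± 0.16 (edgeR adjusted p = 5.63e-08). Cacybp, the partner of S100a6, was lower in Collagen I, as S100a6 was. In non-basal wells Cacybp had 286.8, 286.3 and 295.3 CPM in BME but 108.5 and 73.4 CPM in Collagen I. That was a log2 fold change of -1.62 ± 0.18 (edgeR adjusted p = 5.79e-06), and Cacybp fell in basal wells by 1.42 ± 0.23 on the log2 scale. Within plates the 2 genes went opposite ways. Cacybp was lower in basal than in non-basal wells (edgeR adjusted p = 0.00248), where S100a6 was higher. The Cacybp call was lost with cycling wells left out (log2 fold change -0.26, edgeR adjusted p = 0.188). In cycling wells Cacybp was higher than in the rest (log2 fold changes of 0.33 to 0.95 over 18 alternatives), where S100a6 was lower. Among basal wells alone S100a6 was not called lower in cycling wells (edgeR adjusted p = 0.44).

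Anxa1, the partner of S100a11, rose in basal wells from 508, 686 and 785 CPM in BME to 1806 and 2006 CPM in Collagen I, a log2 fold change of 1.58 ± 0.20 (edgeR adjusted p = 4.84e-06). In non-basal wells it did not pass the test (1304 to 1690 CPM in BME, 1691 and 1774 CPM in Collagen I). The difference between the classes was itself called, at 1.26 ± 0.12 (edgeR adjusted p = 6.72e-09). Tlr4, the Toll-like receptor for calprotectin, was lower in non-basal wells of Collagen I, at 4.72 and 7.52 CPM on 4 counts each against 16.1 to 18.2 CPM in BME (edgeR adjusted p = 0.0135), and was not called without Collagen I replicate 1 (edgeR adjusted p = 0.221) or by DESeq2 (0.0542). Nptn and Anxa11 did not pass the test in either class. Ager, the receptor for advanced glycation end products, reached at most 6 counts in basal or non-basal wells of a Collagen I plate.

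**Figure D2:**
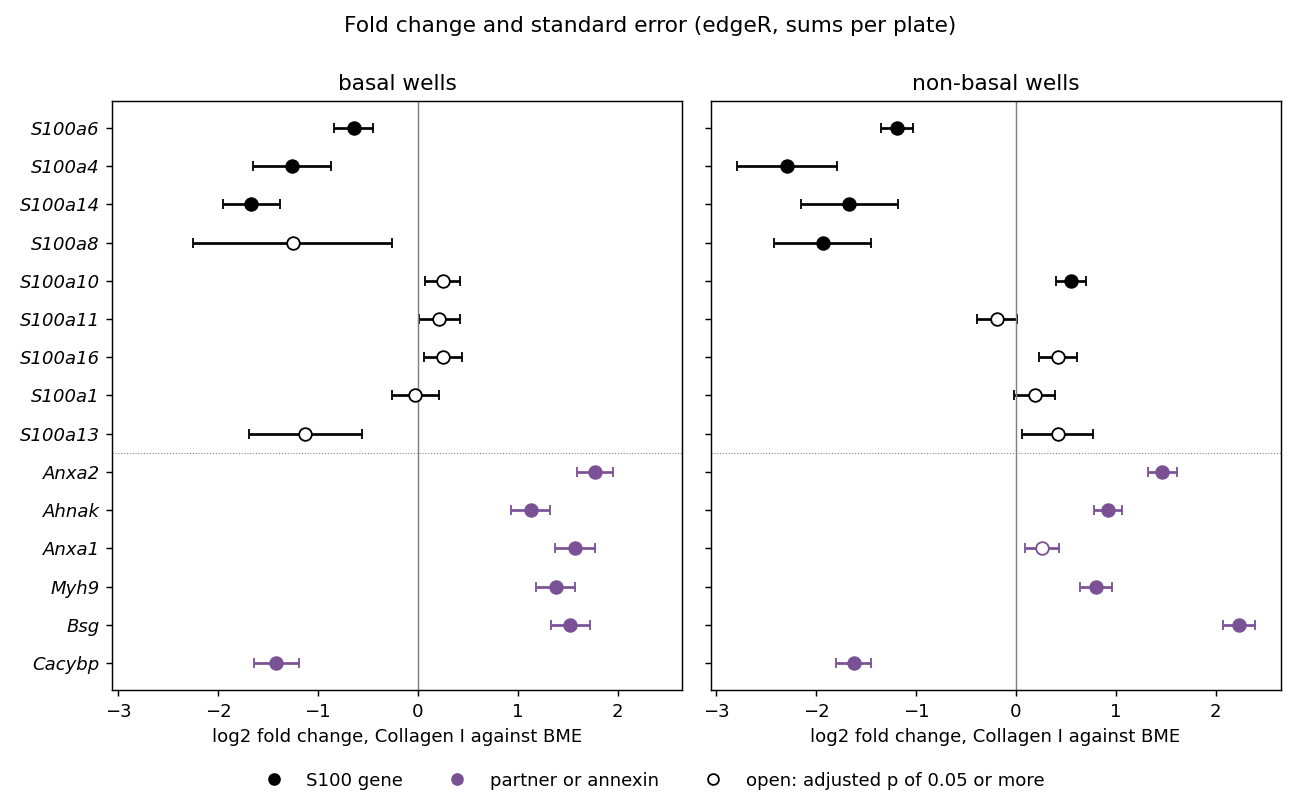
Log2 fold change of Collagen I against BME with its standard error (x axis) for the 9 S100 genes (black) and 6 partners (purple) in basal and non-basal wells, from sums of 3 BME and 2 Collagen I plates; open symbols mark an adjusted p of 0.05 or more. Anxa2, Ahnak, Myh9 and Bsg lie to the right in both classes while S100a6, S100a4, S100a14 and Cacybp lie to the left.

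Wider lists of related genes were counted too, beside 10.8% of all genes higher and 8.31% lower in basal wells and 14.1% and 13.9% in non-basal wells. Of 10 annexins tested, 6 rose and 0 fell in basal wells, with a median log2 fold change of 0.90, and 2 rose and 0 fell in non-basal wells, with a median of 0.19. The call of Anxa5 in non-basal wells was lost without BME replicate 2 (edgeR adjusted p = 0.0505) or Collagen I replicate 1 (0.0759) or 3 (0.137). Anxa5, a phosphatidylserine binder, rose by 1.08 ± 0.17 in basal wells (edgeR adjusted p = 0.000101), and Anxa6 and Anxa7 by 0.97 and 1.04, where Anxa6 was not called without Collagen I replicate 1 (edgeR adjusted p = 0.0555) and Anxa7 not without replicate 3 (0.0603). Of the S100 receptors and binding partners, 4 of 13 rose and 2 fell in basal wells, and 3 of 14 rose and 3 fell in non-basal wells. Of other EF-hand proteins, 6 of 22 rose and 1 fell in basal wells and 8 of 24 rose and 1 fell in non-basal wells. Hpcal1, a calcium sensor of the visinin family, rose by 2.13 ± 0.23 in non-basal wells (edgeR adjusted p = 5e-06) and Calu, a calcium-binding protein of the secretory pathway, by 0.96 ± 0.17 (edgeR adjusted p = 0.000634), and both rose in basal wells too. S100a3, the 1 other S100 gene of 8 listed that could be tested, had 49 counts in BME wells kept and 0 of 2456518 counts in Collagen I, which allows up to 1.22 CPM against 1.92 CPM in BME. Over all wells it passed narrowly (edgeR adjusted p = 0.0499). It was not called under 6 of 11 alternatives, among them without Collagen I replicate 1 (edgeR adjusted p = 0.241) or 3 (0.16), with RLE scaling (0.0518) and by DESeq2 (0.0901). S100a5, S100a7a, S100b and S100g held 10 counts or fewer in either matrix.

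Basal and non-basal wells were then compared within plates. Basal wells were higher for 6 of 9 members, lower for S100a8, and did not pass for S100a1 and S100a13, where 29.2% of genes tested were called (14% higher and 15.2% lower). S100a14 stood out with basal to non-basal ratios of 8.27, 6.42 and 7.76 in BME against 10.5 and 4.25 in Collagen I, a log2 fold change of 2.85 ± 0.12 (edgeR adjusted p = 1.31e-09). S100a16 was 2.46, 2.63 and 2.44 times higher in BME and 1.92 and 2.56 times higher in Collagen I (1.24 ± 0.09, edgeR adjusted p = 2.32e-07).

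S100a6 followed with ratios of 1.62 to 2.56 (0.88 ± 0.11, edgeR adjusted p = 3.47e-05), S100a10 with 1.41 to 2.07 (0.81 ± 0.09, edgeR adjusted p = 1.81e-05) and S100a11 with 1.40 to 1.95 (0.66 ± 0.09, edgeR adjusted p = 0.000116). S100a4 was 1.34 to 3.68 times higher (0.72 ± 0.15, edgeR adjusted p = 0.00209) and lost the call when cycling wells were left out (edgeR adjusted p = 0.347). These 6 were higher in basal wells in 5 of 5 plates, which 15.4% of all genes were. S100a8 was lower in basal wells at ratios of 0.158, 0.278 and 0.610 in BME (-1.60 ± 0.29, edgeR adjusted p = 0.000877). In Collagen I its ratios of 0.350 and 1.41 rest on 9 counts in all and show no direction. S100a1 had ratios of 0.788 to 1.02, on either side of 1.

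**Figure D3:**
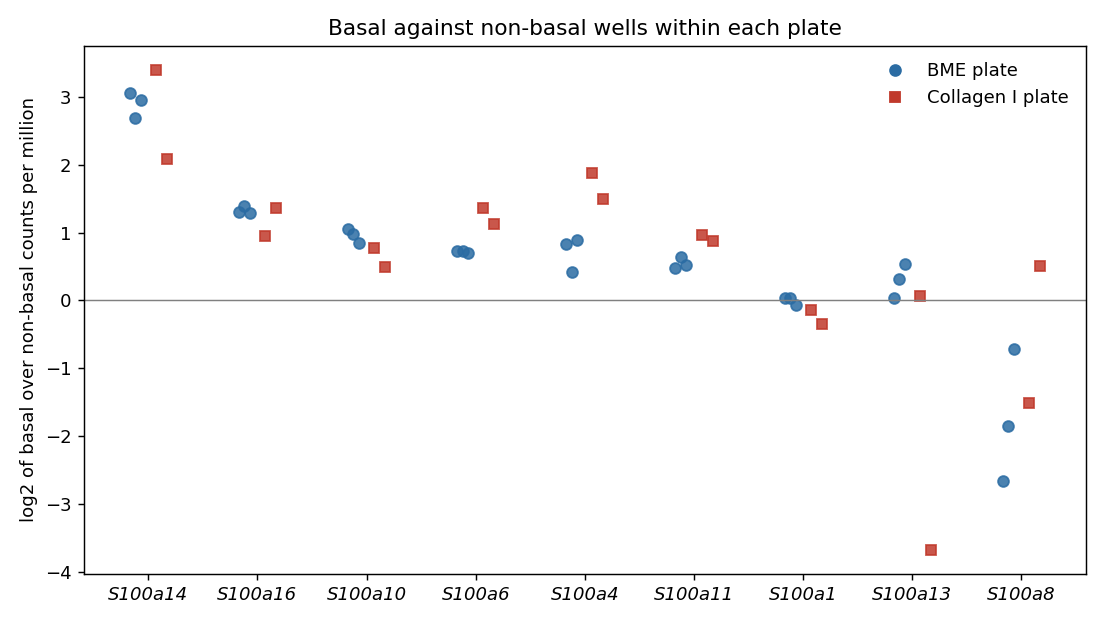
Log2 ratio of basal to non-basal CPM (y axis) for each S100 gene (x axis); each point is 1 plate (blue circles BME, red squares Collagen I) and the line at 0 marks equal levels. S100a14 lies between 2.09 and 3.39, and S100a16, S100a10, S100a6, S100a4 and S100a11 lie above 0 in all 5 plates; the low S100a13 point of a Collagen I plate rests on 1 basal count.

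Whether the effect of Collagen I differed between the classes was tested as an interaction. S100a6 was the only member called: its basal to non-basal ratio was 1.66, 1.65 and 1.62 in BME and 2.56 and 2.18 in Collagen I, a difference of 0.49 ± 0.12 on the log2 scale (edgeR adjusted p = 0.0145), while 4.29% of genes were called (1.45% higher and 2.84% lower). The fall of S100a6 was thus smaller in basal wells. The call was lost without BME replicate 1 (edgeR adjusted p = 0.0514), without Collagen I replicate 1 (0.326) and after thinning (0.0987). S100a11, with ratios of 1.40 to 1.55 in BME and 1.95 and 1.83 in Collagen I, did not pass (edgeR adjusted p = 0.108) but did with the saturation correction undone (0.0409). S100a13 did not pass either (-1.58 ± 0.62, edgeR adjusted p = 0.175). Its estimate was -4.05 without Collagen I replicate 1, which left 1 basal count in Collagen I. For S100a14 the estimate was 0.01 ± 0.28, so a difference of the size seen for S100a6 would lie within 2 SE of it.

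In cycling wells most members were lower than in the rest of the wells. All but S100a8 passed the test, 8 of 9, where 40.9% of genes were called (19% lower and 21.9% higher). Not all of these calls were firm. S100a10 was not called without BME replicate 2 (edgeR adjusted p = 0.0763), without Collagen I replicate 1 (0.0625) or 3 (0.0682), or with a limit of 40 for cycling wells (0.636), and lost its call under 9 of 18 alternatives. S100a4 was not called without BME replicate 2 (edgeR adjusted p = 0.201) or 3 (0.0833), by DESeq2 (0.103) or with the limit of 40 (0.501), and S100a13 not without BME replicate 1 (0.0547) or with that limit (0.307). S100a14 lost its call with that limit (edgeR adjusted p = 0.0577) and after thinning (0.913). After thinning S100a1 (edgeR adjusted p = 0.509) and S100a16 (0.324) were not called either. S100a8 passed without BME replicate 2 (edgeR adjusted p = 0.00298). S100a6 stood at 1009 to 1123 CPM in cycling and at 1301 to 1561 CPM in other BME wells, a log2 fold change of -0.52 ± 0.08 (edgeR adjusted p = 6.37e-05). Basal wells made up 18.9% of cycling and 41.2% of other wells in BME replicate 1 and 23.8% and 46.7% in replicate 2, but 30.2% and 29.8% in replicate 3. In Collagen I they made up 28.6% and 26.8% of cycling and 36.4% and 49.4% of other wells, so the mix of classes differed in 4 of 5 plates. Among non-basal wells alone 6 members were lower, with S100a6 at -0.65 ± 0.09 (edgeR adjusted p = 2.06e-06), S100a4 at -0.86 ± 0.20 (edgeR adjusted p = 0.00133) and S100a13 at -0.88 ± 0.21 (edgeR adjusted p = 0.00186). Over all genes 3082 of 9247 tested were called there. Among basal wells alone 1 member passed, S100a1, at -0.48 ± 0.15 (edgeR adjusted p = 0.0117), and S100a6 did not (-0.15 ± 0.12, edgeR adjusted p = 0.44). Fewer genes of any kind were called among basal wells, 1191 of 7961 (15%). S100a1 was lower under both restrictions. Whether basal and non-basal wells differ in this was not tested.

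The members differed in how many wells carried them. S100a11 was counted in 88.7% to 96.9% of BME wells and S100a6 in 86.5% to 92.5%, whereas S100a14 was counted in 34.2% to 38.7%, S100a4 in 28.8% to 34.9% and S100a8 in 15.4% to 17.3%. Since depth sets such shares, wells were also thinned to 2000 counts each, which kept 800 BME and 419 Collagen I wells. At that depth S100a6 was counted in 71% to 76% of non-basal BME wells and in 43.7% and 46.4% of non-basal Collagen I wells, and in 87.5% to 91.8% of basal BME wells and 66.7% and 67.9% of basal Collagen I wells. Unthinned, the non-basal shares were 81.9% to 91.1% and 67.7% and 52.1%. S100a10 was counted in 56.6% to 59.6% of all BME wells and in 68.3% and 68.2% of Collagen I wells. Each plate thus showed the direction of the summed levels.

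S100a8 sat in few wells. The top 5% of wells (16 per plate) held 75.6%, 74% and 68.1% of its BME counts, against 15% to 18.2% for S100a11 and 23.1% to 24.9% for S100a6. Its highest wells held 25.1, 30.1 and 17 counts, all non-basal. For S100a4 the top 5% held 41.8%, 47.1% and 55.7%, and 1 non-basal well of BME replicate 3 held 53.3 of its counts, 15.1% of the plate. Without that well its non-basal level in that plate was 22.1 rather than 31.7 CPM, still above both Collagen I plates.

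**Figure D4:**
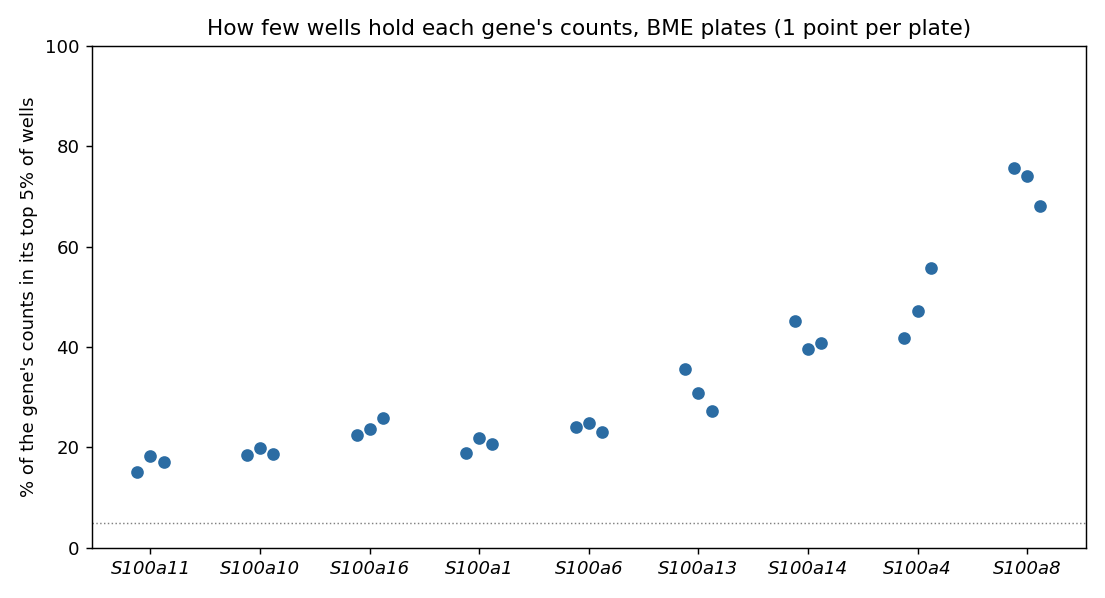
Percent of a gene's counts held by its top 5% of wells (y axis, 0 to 100) for each S100 gene (x axis); each point is 1 BME plate and the dotted line at 5 marks an even spread. S100a11, S100a10, S100a16, S100a1 and S100a6 lie between 15 and 25.9, S100a14 and S100a4 between 39.6 and 55.7, and S100a8 between 68.1 and 75.6.

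Because S100a8 and S100a4 are also made by leukocytes and fibroblasts, markers of those cells were counted. Of the 20 neutrophil and macrophage markers listed 12 had a row, and their sum was 26.7 to 46.8 CPM in BME and 42.7 and 34.1 CPM in Collagen I. Several defining markers were near 0: over all BME wells kept Lyz2 had 1 count, Csf3r 3, Itgam 5 and Csf1r 1, while Cxcr2 had 738 counts, Camp 85 and Cd68 54. BME wells with S100a8 held these markers at 32.3 CPM and wells without it at 36.6 CPM. In Collagen I the 11 wells with S100a8 held them at 63.8 CPM and the 545 wells without it at 38.3 CPM. The 10 fibroblast markers summed to 73.2, 98.4 and 102.5 CPM in BME and to 133.6 and 435 CPM in Collagen I, higher where S100a4 was lower. In BME Postn (1513 counts) and Pdgfra (556) led that list, with Pdgfrb at 1 and Lum at 1, and in Collagen I Col1a1 (234.1) and Col1a2 (139.2) led it. BME wells with S100a4 held the fibroblast markers at 93.4 CPM and wells without it at 90.02 CPM. In Collagen I the 24 wells with S100a4 held them at 377.6 CPM and the 532 wells without it at 253.1 CPM. At least 1 of these markers was counted in 58.3% and 35.7% of those wells. The part of such cells in the results was not tested further. Endothelial and lymphocyte markers summed to under 6 CPM in each plate. The 6 epithelial markers summed to between 1180 and 1225 CPM in BME and to 3092 and 2986 CPM in Collagen I.

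From well to well, S100a6 varied with genes of the Anxa2 complex. Among 7732 genes counted in at least 20% of wells of each BME plate, those most like S100a6 by Pearson's r of log2(1 + counts per 10000), averaged over the 3 BME plates, were Ahnak (r of 0.44, 0.45 and 0.52), S100a10 (0.44, 0.52 and 0.44) and Anxa2 (0.46, 0.46 and 0.40). In Collagen I the same pairs had r of 0.32 and 0.29, 0.31 and 0.21, and 0.30 and 0.25. In BME wells over 10000 counts (678 wells) the means were 0.50, 0.47 and 0.42. Within the classes at that depth they were 0.28, 0.39 and 0.19 among basal wells and 0.46, 0.35 and 0.51 among non-basal wells. These r describe wells of 1 plate each, which share their library and differ in depth. S100a6 was thus lower in Collagen I where Anxa2 and Ahnak were higher, while within each plate its r with both was above 0.

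S100a14 varied with basal genes: Sfn, a 14-3-3 protein of stratified epithelium (r of 0.51, 0.56 and 0.47), Krt14 (0.49, 0.52 and 0.50) and Col17a1, a hemidesmosome collagen (0.47, 0.48 and 0.43). Among basal BME wells over 10000 counts the mean r was 0.16, 0.14 and 0.02, and among non-basal ones 0.36, 0.21 and 0.44. S100a16 was most like Reep5, Ifitm3 and Sfn, with mean r of 0.47, 0.44 and 0.41, which were 0.066, 0.31 and 0.23 among basal wells over 10000 counts and 0.13, 0.41 and 0.22 among non-basal ones. S100a4 was most like S100a6 (mean r 0.29), Lgals1 (0.28), which codes for galectin-1, and Vim (0.28), which codes for vimentin, and in wells over 10000 counts these were 0.36, 0.35 and 0.34. S100a11 was most like S100a10 (0.43). Among BME wells over 10000 counts that pair had a mean r of 0.41 in basal and 0.28 in non-basal wells. S100a6 was among the 3 genes most like S100a10 (mean r 0.47, and 0.47 in wells over 10000 counts). Besides it, the other genes most like S100a10 and S100a11, and the first for S100a1, code for ribosomal proteins. The r of these ribosomal genes fell from between 0.35 and 0.48 to between 0.18 and 0.28 in wells over 10000 counts. S100a13 had no likeness above a mean r of 0.24, and S100a8, in too few wells, was not searched. S100a1 and S100a13, which start head to head, had a mean r of 0.18.

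**Figure D5:**
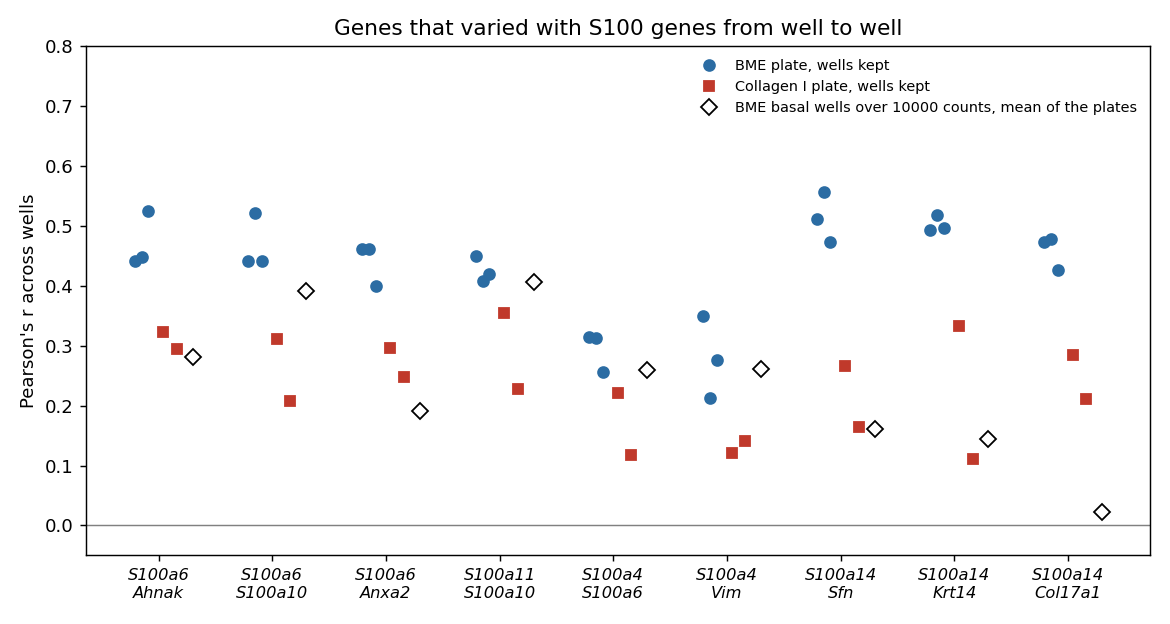
Pearson's r across wells (y axis) for 9 gene pairs, with 1 blue circle per BME plate, 1 red square per Collagen I plate, and an open diamond for the mean over BME plates of basal wells above 10000 counts. The S100a6 and S100a11 pairs with S100a10 keep mean r of 0.39 and 0.41 among basal wells, while the S100a14 pairs drop to between 0.02 and 0.16.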

How the data were processed

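Organoid cells were profiled by SORT-seq with CEL-Seq2 chemistry (3 BME and 2 Collagen I plates). The authors deposited estimated counts per gene and well: distinct molecular identifiers (UMIs) corrected for saturation, not normalized, after alignment to mm10 with BWA per the labels (versions not given in the sources used here). Identifiers of 6 bases gave back 100% of the values within 0.1%. Per the study's methods each matrix had 3 plates. Of the Collagen I plates, replicates 1 and 3 were used here. Spike-ins were left out of totals.

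Wells were kept above 500 counts, under 8000 genes and under 10% mitochondrial counts. Doublets were not called. One alternative left out the top 5% of wells by counts. Counts were summed per plate and class (at least 10 wells), rounded and tested with the quasi-likelihood test of edgeR 4.0.16 (R 4.3.3, TMM scaling, filterByExpr), with plate as a block for comparisons within plates. P-values were adjusted by the Benjamini-Hochberg method over all genes tested. The SE is the absolute log2 fold change over the square root of F. Levels are not corrected for sequencing run, and limits on a count of 0 use 3 counts and cover counting error only. The steps were tested on simulated data.

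All members, 10 partners with a known physical tie, up to 3 more genes of each list per comparison (lowest adjusted p) and, per member, the 3 genes of highest mean r were eligible to be named. The members and lists were chosen with earlier results of these data known. Alternatives were DESeq2 1.42.0, RLE scaling, abundant genes left out, no filter, no mitochondrial limit, over 2000 counts per well, thinning to 2000 counts, the saturation correction undone, other class limits, a replicate block and each plate left out. Cycling fits within basal or non-basal wells were added after seeing the data.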

Additional observations from a re-analysis of the deposited data

Results flagged for a closer look

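S100a6 was singled out because its response to Collagen I differed between basal and non-basal wells by a test of the difference itself. Its log2 fold change of Collagen I against BME was -0.64 ± 0.19 (SE) in basal wells and -1.19 ± 0.16 in non-basal wells, and the difference of basal minus non-basal was 0.49 ± 0.12 (edgeR adjusted p = 0.0145, 3 BME and 2 Collagen I plates). That difference was not called without BME replicate 1 (edgeR adjusted p = 0.0514) or after thinning (0.0987), and was 0.34 without Collagen I replicate 1. The basal fold change itself lost its call under 4 of 17 alternatives. The basal to non-basal ratio was higher in both Collagen I plates (2.56 and 2.18) than in any BME plate (1.62 to 1.66). No group had the 4 plates needed to look for a plate far from the others.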

How the results depend on the processing

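Of 63 results on the members, 40 passed the test under at least 1 setting. S100a6 in non-basal and cycling wells kept its call under each alternative run, and most other calls between the matrices were lost without one or both Collagen I plates. After thinning wells to 2000 counts, which tests fewer genes on fewer counts, 1 member was called in basal wells in place of 3, 2 in non-basal wells in place of 5, 1 in cycling wells in place of 2, 3 over all wells in place of 5, 4 between basal and non-basal wells in place of 7, 2 between cycling and other wells in place of 8, and 0 for the difference of effects in place of 1. Stricter keratin limits left 1 call in basal wells, the saturation correction undone gave 2 for the difference of effects, and a limit of 40 for cycling wells left 4 between cycling and other wells. Taken among basal wells, cycling against other wells gave 1 call and Collagen I against BME in cycling wells 1, and among non-basal wells the latter gave 1. Over all genes 681 of 10398 were called in the last of these. Leaving out 1 plate at a time gave 1 to 4 calls in basal, 2 to 7 in non-basal, 1 to 3 in cycling and 2 to 7 in all wells, 6 to 7 between basal and non-basal wells, and 0 to 1 for the difference of effects. Between the matrices the upper ends came without BME replicate 1, where more genes of any kind were called. Over all genes that setting called 2266 of 9544 in basal, 3690 of 10407 in non-basal and 4569 of 11132 in all wells. With all plates it was 1967 of 10296, 3106 of 11076 and 3765 of 11839. Of the 23 results called under no setting, the sign turned under at least 1 setting for 13. Among the other 40, the sign turned for S100a1 over all wells, which was called there only without BME replicate 1. Its log2 fold change was -0.004313 with no filter and -0.05419 with the replicate block, and lay between -0.04975 and 0.3179 with 1 plate left out. The sign also turned for S100a8 between cycling and other wells. Its values there were 0.01276 by DESeq2, 0.02507 with no filter, 0.002918 without the top 5% of wells, and between -0.9894 and 0.5829 with 1 plate left out. The cause was not tested.

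Matrices share the replicate numbers 1 and 3, but same-numbered plates did not deviate together (correlations of -0.036 to 0.0275), so the numbers were not read as pairs. With the replicate block 3 members were called in basal, 5 in non-basal, 2 in cycling and 4 over all wells, where S100a10 was lost (edgeR adjusted p = 0.0781). Over all genes, the share called without Collagen I replicate 1 or 3 was 9.51% and 7.7% in basal wells (19.1% with both), 11.8% and 15.4% in non-basal wells (28%), 2.14% and 1.43% in cycling wells (7.63%), 15.2% and 16.8% over all wells (31.8%), and 1.76% and 1.99% for the difference of effects (4.29%), which was 2.29% by DESeq2. Without BME replicate 1, 2 or 3 the share between basal and non-basal wells was 18%, 16.2% and 19.9% (29.2%). Thinning took the calls over all genes from 1967 to 712 in basal, from 3106 to 1145 in non-basal and from 3765 to 1722 in all wells, from 2916 to 389 between basal and non-basal wells and from 4322 to 889 between cycling and other wells. In cycling wells thinning left 6.29%, leaving out BME replicate 1 gave 14.3% and BME replicate 3 gave 5.23%, and taking basal wells alone gave 4.49%. For the difference of effects thinning left 1.73% and leaving out BME replicate 1 left 2.88%. With cycling wells left out the share was 21.5% in non-basal wells and 15.3% between basal and non-basal wells. Between cycling and other wells it was 22.1% with the limit of 40 and 15% among basal wells. S100a4, S100a8, S100a13 and S100a14 each had 44 counts or fewer in Collagen I, which limits the precision of their levels there.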
